A study of Ovis aries with 36 samples.

Results

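The 4 genes described here were lower in the hypothalamus of sexually active rams than in that of inactive rams in the same count data, and they were chosen by that measured difference. They are given by their Ensembl sheep IDs, ENSOARG00020006027, ENSOARG00020022055, ENSOARG00020016201 and ENSOARG00020025202, because the sources used here pair no ID with a gene name (0 of 26478 IDs matched the RefSeq gene table). Their function is therefore not described. They are 4 of 26478 gene IDs in the count table, and all 4 were among the 16773 IDs that passed the filter on low counts. In this contrast 16 genes had an adjusted p below 0.05 (0.0954% of the genes tested), 11 higher in active rams (0.0656%) and 5 lower (0.0298%). The 4 genes were taken from those 5, so their place there is how they were chosen and is no result. The fifth, ENSOARG00020000496, was no member.

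The libraries came from 12 adult Rasa Aragonesa rams, a Spanish sheep breed, of which 6 were labelled active in sexual behaviour (animals 1 to 6) and 6 not active (animals 7 to 12, called inactive here). Each ram gave 1 library each of hypothalamus, pars tuberalis and pineal gland, so 36 libraries form 6 groups of 6 different animals. No genotype, treatment or season was given, and no manipulation was named that the groups share. Levels are CPM, counts scaled to a common library size with trimmed mean of M values factors, and log2 differences are active minus inactive unless stated.

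Neurons of the hypothalamus release gonadotropin-releasing hormone, which starts the endocrine cascade to the testis, and the tissue integrates steroid feedback with signals of day length and social context. Melatonin comes from the pineal gland, mainly in darkness. The pars tuberalis, a thin part of the pituitary rich in melatonin receptors, turns the length of the melatonin signal into thyroid hormone signalling in the neighbouring hypothalamus. In sheep, a seasonal breeder, this route times reproduction.

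Depth ran from 19251952 to 44283825 counts per hypothalamus library, from 22556623 to 35440028 for the pars tuberalis and from 25242937 to 72951491 for the pineal gland. Cell type markers could not be looked up without gene names, so each library's tissue was checked with genes restricted to 1 tissue in these same libraries (35, 43 and 69 genes for hypothalamus, pars tuberalis and pineal gland). The hypothalamus libraries held their own set at 71.3% to 123% of the tissue median in active rams and at 55.9% to 207% in inactive rams, with animals 10 (207%) and 7 (170%) highest. The hypothalamus library of active animal 4 held pars tuberalis genes at 17.1%, where the next had 1.99%, and the pineal library of inactive animal 10 held hypothalamus genes at 8.95%, where the next had 1.57%. None of the 4 genes belonged to a restricted set. In pieces of tissue, fewer cells of a type and less RNA per cell cannot be told apart, which holds for every level below.

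ENSOARG00020006027 was present in all 36 libraries and was highest in the hypothalamus. In active rams 1 to 6 it stood there at 22.4, 25.6, 25.3, 25.0, 27.9 and 9.21 CPM. In inactive rams 7 to 12 it stood at 51.4, 36.2, 118, 82.4, 49.3 and 41.8 CPM. The 2 groups did not overlap, with active animal 6 lowest and inactive animals 9 and 10 highest. Group means were 22.5 ± 6.77 and 63.2 ± 31.4 CPM (SD, n = 6 each), and the fitted log2 difference was -1.49 (SE 0.277).

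ENSOARG00020022055 was also present in every library. Active rams 1 to 6 had 28.1, 15.8, 28.6, 17.3, 19.2 and 22.0 CPM in the hypothalamus. Inactive rams 7 to 12 had 35.8, 24.0, 31.6, 30.1, 72.8 and 72.1 CPM. Inactive animals 11 and 12 stood far above the rest, and inactive animal 8 lay within the active range, so 5 of 6 inactive rams exceeded every active one. Means were 21.8 ± 5.48 and 44.4 ± 22.1 CPM (SD, n = 6 each), with a log2 difference of -1.02 (SE 0.200). That SE comes from a spread shared by all tissues and is not that of the hypothalamus alone. Within a state, the SD of its log2 CPM was 0.544 in hypothalamus, 0.127 in pars tuberalis and 0.174 in pineal gland.

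ENSOARG00020016201 was scarce in the hypothalamus. Active rams 1 to 6 had 0.674, 0.591, 0.714, 0.480, 0.524 and 1.77 CPM, from 15 to 30 counts per library. Inactive rams 7 to 12 had 8.43, 3.28, 0.721, 10.7, 8.18 and 5.26 CPM, from 26 to 433 counts. Inactive animal 9 sat in the active range while the other 5 inactive rams exceeded all active ones. Means were 0.792 ± 0.487 and 6.09 ± 3.70 CPM (SD, n = 6 each) and the log2 difference was -3.00 (SE 0.520). Without animal 9 it was -3.25, and the groups then ran from 0.480 to 1.77 and from 3.28 to 10.7 CPM.

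ENSOARG00020025202 was near the lower limit of detection in most libraries. Active rams 1 to 6 had 32, 1, 1, 1, 4 and 4 counts in the hypothalamus, or 1.03, 0.0269, 0.0476, 0.0320, 0.105 and 0.236 CPM. Inactive rams 7 to 12 had 5, 184, 401, 34, 16 and 233 counts, or 0.210, 7.94, 11.1, 0.839, 0.361 and 13.5 CPM. Inactive animals 8, 9 and 12 held 818 of the 873 counts of their group (93.7%), and the other 3 inactive rams lay within the active range. Means were 0.246 ± 0.391 and 5.66 ± 5.95 CPM (SD, n = 6 each), and the log2 difference was -4.49 (SE 0.917). Active animal 1 held 32 of the 43 active counts, and without that animal the difference was -6.07.

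These hypothalamic differences by state are descriptions without a test, since they chose the genes. Ordered from the lowest log2 difference among the 16773 tested genes, ENSOARG00020025202 ranked 3, ENSOARG00020016201 ranked 17, ENSOARG00020006027 ranked 112 and ENSOARG00020022055 ranked 228. Groups that do not overlap, lower in active rams, occurred in 12 of all tested genes (0.0715%). Genes with 5 of 6 inactive rams above every active one were not counted over all tested genes. Without the hypothalamus library of animal 4, the log2 differences were -1.52 for ENSOARG00020006027, -0.97 for ENSOARG00020022055, -2.90 for ENSOARG00020016201 and -4.26 for ENSOARG00020025202. The directions held without each animal in turn, but the number of genes called by state in the hypothalamus, 16 in all, was 0 without animal 4, 10 or 11.

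**Figure D1:**
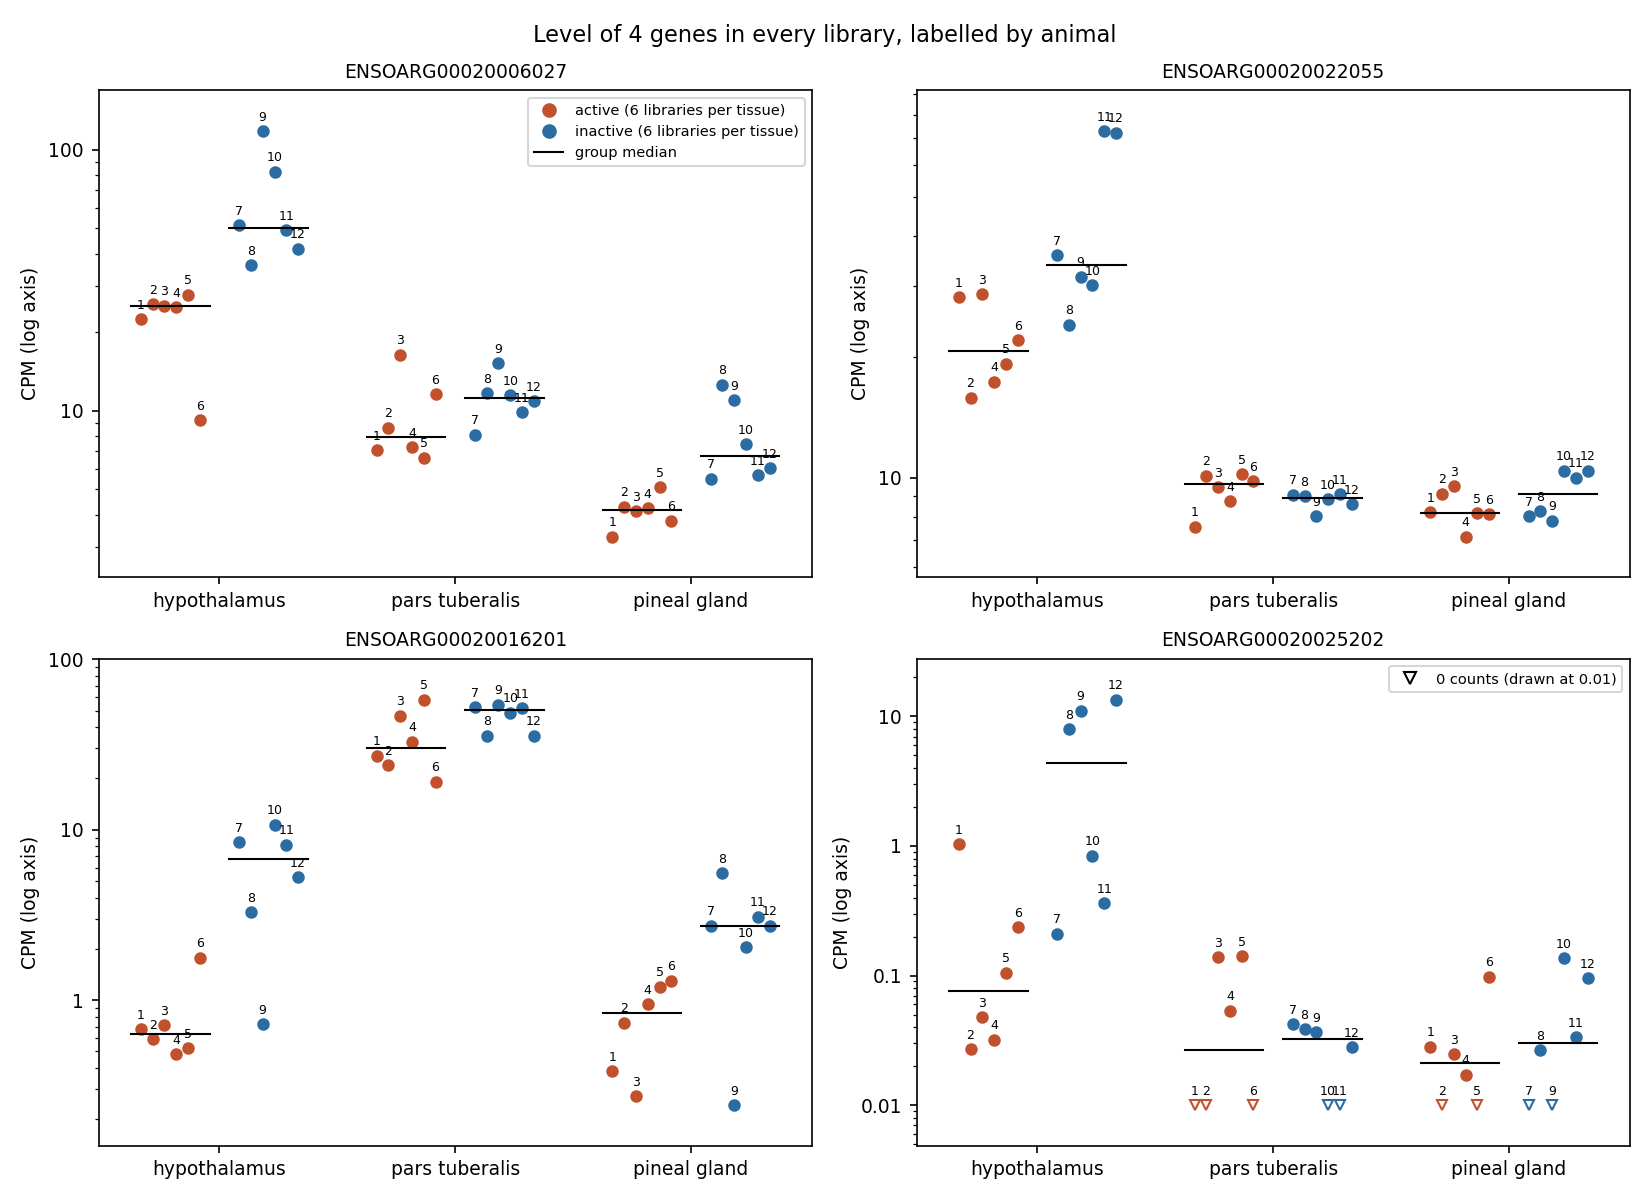
CPM (log axis) of each gene in every library by tissue and state, with the animal number at each point, black bars at group medians and open triangles for libraries with 0 counts. In the hypothalamus ENSOARG00020006027 runs from 9.21 to 27.9 CPM in active and from 36.2 to 118 CPM in inactive rams, and ENSOARG00020016201 is highest in the pars tuberalis.

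The tissue profiles of the 4 genes fell into 2 kinds. ENSOARG00020006027, ENSOARG00020022055 and ENSOARG00020025202 had their highest mean in the hypothalamus, whereas ENSOARG00020016201 was highest in the pars tuberalis. For ENSOARG00020025202 that mean rested on few rams, with 818 of its 916 hypothalamic counts in inactive animals 8, 9 and 12. Its median in active rams was 0.0762 CPM in hypothalamus, 0.0267 in pars tuberalis and 0.021 in pineal gland libraries. All 4 differed between pars tuberalis and hypothalamus at an adjusted p below 0.05, 3 of them lower in the pars tuberalis, where 72% of all tested genes differed (36.4% lower and 35.6% higher). Against the hypothalamus, 3 of 4 were lower in the pineal gland, where 63.8% of tested genes differed (32.8% lower and 31% higher). These shares leave nothing particular to the 4 genes in being called between tissues. The calls of ENSOARG00020025202 among them are no separate support, since only its hypothalamus libraries brought it past the filter. The tests weighted both states equally and used edgeR's quasi-likelihood fit with Benjamini-Hochberg adjustment over all tested genes.

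ENSOARG00020006027 averaged 42.9 ± 30.3 CPM in hypothalamus, 10.4 ± 3.12 in pars tuberalis and 6.09 ± 2.92 in pineal gland libraries (SD, n = 12 each). Its log2 difference was -1.87 (SE 0.199) for the pars tuberalis and -2.71 (SE 0.206) for the pineal gland, each minus hypothalamus, with adjusted p values of 4.34e-10 and 1.76e-13 in edgeR's test. It was also lower in the pineal gland than in the pars tuberalis, by a log2 difference of -0.85 (SE 0.196, adjusted p 0.000281 in edgeR's test), so its 3 tissues were ordered. The call between pineal gland and pars tuberalis was 1 of 11824 (70.5%), with 33.8% of tested genes lower and 36.7% higher in the pineal gland.

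ENSOARG00020022055 averaged 33.1 ± 19.3 CPM in hypothalamus, 9.04 ± 0.796 in pars tuberalis and 8.76 ± 1.10 in pineal gland libraries (SD, n = 12 each). Every hypothalamus library, at 15.8 CPM or more, exceeded every library of the other tissues, at 10.4 CPM or less. Log2 differences from the hypothalamus were -1.79 (SE 0.145) and -1.83 (SE 0.145), with adjusted p values of 6.43e-13 and 4.70e-13 in edgeR's test. Between pineal gland and pars tuberalis the difference was -0.045 with a 95% interval from -0.33 to 0.24 (adjusted p 0.788 in edgeR's test). Those tissues thus did not differ beyond their spread.

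ENSOARG00020016201 averaged 40.5 ± 13.1 CPM in the pars tuberalis, 3.44 ± 3.74 in hypothalamus and 1.77 ± 1.57 in pineal libraries (SD, n = 12 each). No library of the other tissues, at 10.7 CPM or less, reached the lowest pars tuberalis library, at 19.1 CPM. The pars tuberalis was higher than the hypothalamus by 4.21 on the log2 scale (SE 0.372, adjusted p 5.33e-12), and the pineal gland was below the pars tuberalis with a difference of -4.76 (SE 0.379, adjusted p 3.76e-13), both in edgeR's test. Pineal gland and hypothalamus did not differ beyond their spread, at -0.54 with a 95% interval from -1.26 to 0.17 (adjusted p 0.177 in edgeR's test). Hypothalamus libraries held pars tuberalis genes at 0.150% to 17.1% in active and at 0.140% to 0.494% in inactive rams. The r of this gene's hypothalamic level with the log2 of that share was -0.00748 in active and -0.607 in inactive rams (6 libraries each), and the part of other tissue in the level was not tested.

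ENSOARG00020025202 had 916 counts in the 12 hypothalamus libraries, 15 in those of the pars tuberalis and 19 in those of the pineal gland. The pooled ratio of hypothalamus to pars tuberalis was 63.2 with a 95% counting interval of 38.1 to 113, and that to the pineal gland was 64.1 (40.8 to 107). These intervals cover counting error only. Fitted log2 differences from the hypothalamus were -4.90 (SE 0.779) and -4.80 (SE 0.747), with adjusted p values of 1.22e-06 and 1.06e-06 in edgeR's test. These differences were -3.95 and -4.0 without active animal 1. The gene failed the filter in the libraries of either other tissue alone, so only its hypothalamus libraries brought it into this test. Those p values are therefore no separate support for the tissue profile. ENSOARG00020025202 was at 0 counts in 5 pars tuberalis and 4 pineal libraries. The difference between those tissues did not pass the test (0.10, 95% interval from -1.67 to 1.87, adjusted p 0.923 in edgeR's test).

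Whether the difference by state also appeared in the other tissues was asked in their own libraries, whose difference by state did not enter the choice. These libraries were not independent of the choice, since they came from the same rams. The fit that gave the 16 calls in the hypothalamus also shared its estimate of spread over all 36 libraries. With the hypothalamus libraries alone 0 genes were called. None of the 4 genes passed the test by state in pars tuberalis or pineal gland. With edgeR's quasi-likelihood fit no gene at all passed (0 of 16773, 0%, in each tissue), with 593 and 326 genes at an unadjusted p under 0.05. DESeq2 called 1 and 20 genes there, none of them among the 4. The direction was lower in active rams for all 4 genes in the pineal gland and for 2 of 4 in the pars tuberalis.

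In the pineal gland ENSOARG00020006027 stood at 3.30, 4.30, 4.12, 4.24, 5.09 and 3.79 CPM in active rams 1 to 6. Inactive rams 7 to 12 had 5.49, 12.6, 11.0, 7.45, 5.67 and 6.03 CPM. The groups did not overlap here either, which was the case, lower in active rams, for 4 of 16773 genes (0.0238%). Of the 12 genes with such groups in the hypothalamus and the 4 here, this was the 1 gene in both sets (8.33% and 25%). Means were 4.14 ± 0.593 and 8.05 ± 3.05 CPM (SD, n = 6 each), and the log2 difference was -0.96 (SE 0.279, 95% interval from -1.53 to -0.39). Its unadjusted p was 0.00159 and its adjusted p 0.737 in edgeR's quasi-likelihood test, so it did not pass across all genes.

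In the pineal gland ENSOARG00020016201 stood at 0.383, 0.736, 0.272, 0.948, 1.20 and 1.30 CPM in active rams 1 to 6. Inactive rams 7 to 12 had 2.74, 5.58, 0.242, 2.05, 3.08 and 2.74 CPM. Inactive animal 9, low in the hypothalamus, was again the lowest of its group and of all 12 rams, and the other 5 inactive rams exceeded every active one. The share of all tested genes with 5 of 6 inactive rams so placed was not counted. The pineal library of animal 9 held 6 counts of this gene and was the least deep of its tissue, at 25242937 counts. In the pars tuberalis the same animal had 54.2 CPM, the highest inactive value. The log2 difference in the pineal gland was -1.79 (SE 0.496, 95% interval from -2.80 to -0.78), with an unadjusted p of 0.000996 and an adjusted p of 0.619 in edgeR's test. Without animal 9 it was -2.02 (adjusted p 0.154 in edgeR's test), and adjusted p ran from 0.105 to 1 over all alternatives. The SE of 0.496 comes from a spread shared by all tissues and is not that of the pineal gland alone. Within a state, the SD of the gene's log2 CPM was 1.18 in pineal gland, 1.09 in hypothalamus and 0.47 in pars tuberalis. The interval and unadjusted p may therefore overstate how well the pineal difference is known.

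**Figure D2:**
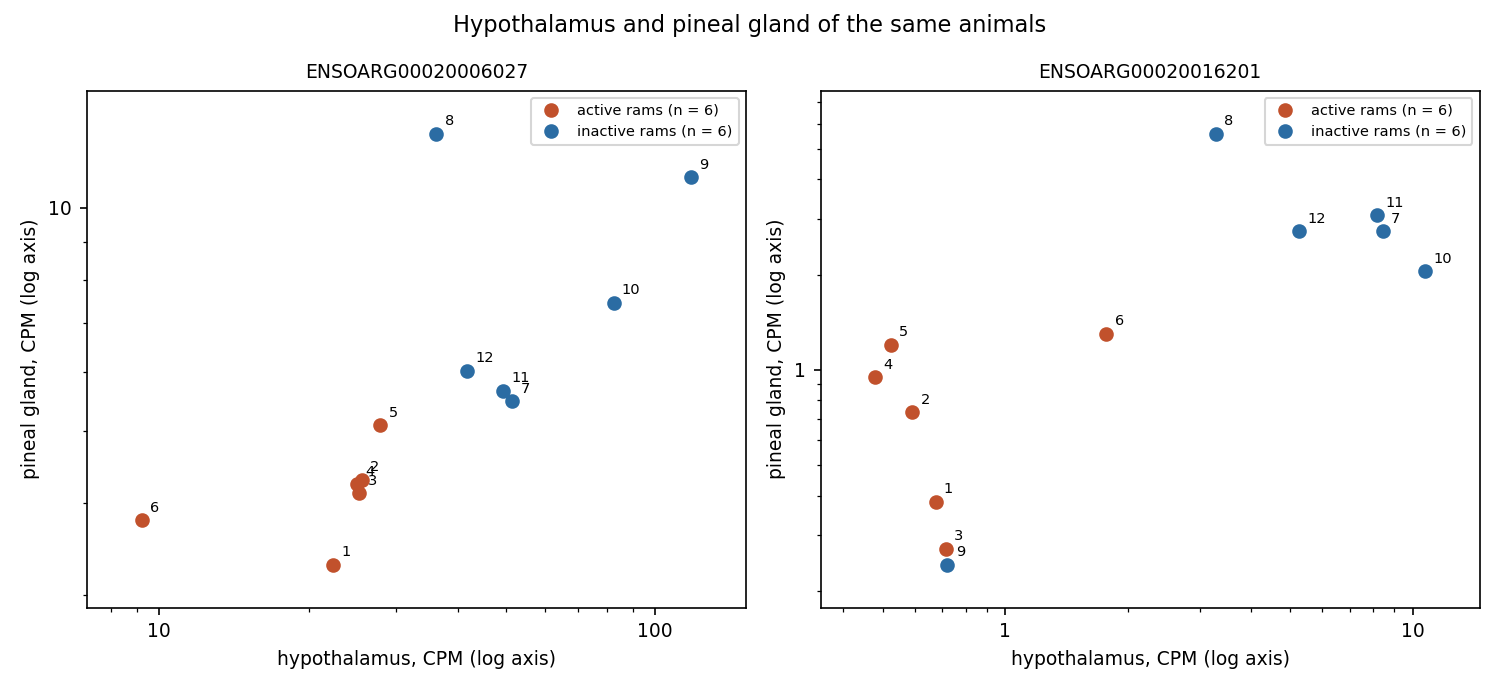
Hypothalamic against pineal CPM (log axes) of ENSOARG00020006027 and ENSOARG00020016201, 1 point per ram with its animal number. For ENSOARG00020006027 every inactive ram lies above every active ram on both axes, and for ENSOARG00020016201 inactive animal 9 lies among the active rams at 0.721 and 0.242 CPM.

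ENSOARG00020022055 had overlapping groups in both tissues. In the pineal gland it ran from 7.13 to 9.53 CPM (median 8.17) in active and from 7.81 to 10.4 CPM (median 9.13) in inactive rams, a log2 difference of -0.13 with a 95% interval from -0.54 to 0.28 (adjusted p 1 in edgeR's test). In the pars tuberalis the log2 difference was 0.087, with a 95% interval from -0.32 to 0.49 (adjusted p 0.968 in edgeR's test). Both intervals exclude a 2-fold difference. The 2 rams at over 70 CPM in the hypothalamus, animals 11 and 12, had 9.09 and 8.58 CPM in the pars tuberalis and 10.0 and 10.4 in the pineal gland.

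In the pars tuberalis ENSOARG00020006027 ran from 6.63 to 16.4 CPM (median 7.94) in active and from 8.10 to 15.2 CPM (median 11.2) in inactive rams. The log2 difference was -0.23 with a 95% interval from -0.79 to 0.33 (adjusted p 0.967 in edgeR's test). ENSOARG00020016201 ran from 19.1 to 58.1 (median 30.0) and from 35.6 to 54.2 CPM (median 50.2), a log2 difference of -0.42 with an interval from -1.34 to 0.50 (adjusted p 0.967 in edgeR's test). For both genes the groups overlapped (11 of all tested genes, 0.0656%, had groups apart and lower in active rams in this tissue), and active rams held the lowest and the highest value.

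ENSOARG00020025202 had 11 counts in active and 4 in inactive pars tuberalis libraries, and 8 and 11 in pineal libraries. Its log2 differences by state there, 1.12 (SE 1.39) and -0.65 (SE 1.24), were smaller than their errors, with adjusted p values of 0.967 and 1 in edgeR's test. No difference by state was detected for it there, with 95% intervals from -1.72 to 3.95 and from -3.17 to 1.86. Inactive animals 8, 9 and 12, which carried its hypothalamic counts, had at most 0.0953 CPM in the other tissues. The pineal difference was -0.084 without the pineal library of animal 10, which held 5 of the 11 inactive counts.

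Whether the difference by state was unequal between pineal gland and pars tuberalis was tested after the values were seen. It was -0.73 (SE 0.390) for ENSOARG00020006027 and -1.37 (SE 0.665) for ENSOARG00020016201, with unadjusted p values of 0.0693 and 0.0472 and adjusted p values of 1 in edgeR's test, where no gene was called and 242 (1.44%) had an unadjusted p under 0.05. An unequal difference between hypothalamus and the other tissues was not tested, because the hypothalamic difference chose the genes.

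**Figure D3:**
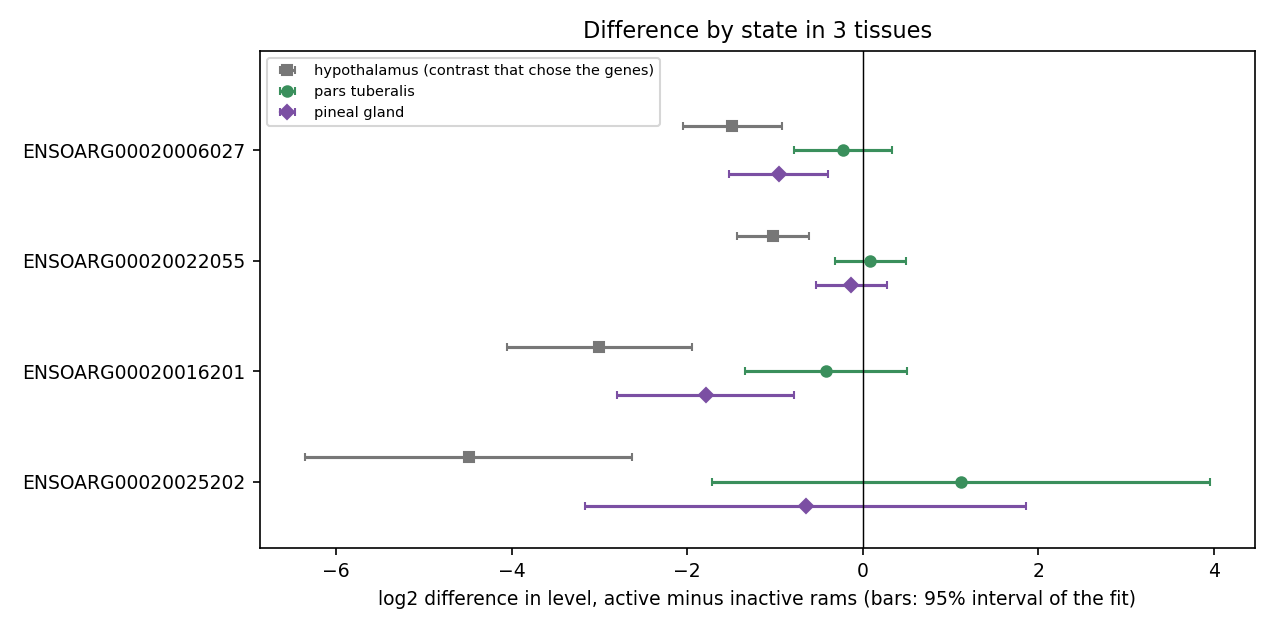
Log2 difference (active minus inactive) of each gene in each tissue with its 95% interval from the fit of all 36 libraries; grey squares are the contrast that chose the genes. Pineal intervals of ENSOARG00020006027 and ENSOARG00020016201 lie below 0, from -1.53 to -0.39 and from -2.80 to -0.78, without adjustment for the number of genes tested. All intervals use a spread of each gene shared by the tissues, not that of 1 tissue.

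Spread between rams of 1 state also set the genes apart from each other. The within-state SD of log2 CPM in the hypothalamus was 0.544 for ENSOARG00020022055, 0.622 for ENSOARG00020006027, 1.09 for ENSOARG00020016201 and 2.06 for ENSOARG00020025202, beside a median of 0.44 over all tested genes. In the pars tuberalis ENSOARG00020022055 was among the steadier genes, at 0.127 beside a median of 0.378 over all tested genes. In the pineal gland ENSOARG00020016201 was among the more variable, at 1.18 beside 0.324. ENSOARG00020016201 and ENSOARG00020025202, with the widest hypothalamic spread, also had the fewest hypothalamic counts, at 1313 and 916. ENSOARG00020006027 and ENSOARG00020022055 had 16759 and 11961. The medians cover genes of all levels, and the part of low counts in the spread was not tested.

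No pair of the 4 genes had a correlation among rams of the same state that passed the test. The 6 pairs gave 12 correlations of hypothalamic log2 CPM (6 active or 6 inactive libraries each), of which 5 were positive, and Pearson's r ran from -0.964 to 0.605. None passed a two-sided exact permutation test after Benjamini-Hochberg adjustment over the 12 relations, with adjusted p from 0.417 to 0.928. With 6 libraries the smallest exact p is 0.00278.

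The largest correlation in size was that of ENSOARG00020006027 with ENSOARG00020016201 in active rams. Pearson's r was -0.964 (exact permutation p 0.0347, adjusted p 0.417) and Spearman's rho was -0.543 (exact permutation p 0.297, adjusted p 0.711). Animal 6 had the lowest value of the former (9.21 CPM) and the highest of the latter (1.77 CPM). Without animal 6 r was -0.489, and without the 2 libraries farthest from the median it was -0.232, so the relation rested on those libraries. In inactive rams the same pair had an r of -0.475 (exact permutation p 0.356, adjusted p 0.87) and a rho of 0.143 (exact permutation p 0.803, adjusted p 0.876), and r was 0.994 without the 2 farthest libraries.

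ENSOARG00020016201 and ENSOARG00020025202 had an r of -0.706 in inactive rams (exact permutation p 0.0806, adjusted p 0.483) and a rho of -0.657 (exact permutation p 0.175, adjusted p 0.7). Among inactive rams, animal 9 was lowest for the former and second highest for the latter, and animal 7 was lowest for the latter and second highest for the former. Without the 2 farthest libraries r was -0.774. In active rams the pair had an r of 0.338 (exact permutation p 0.461, adjusted p 0.87) and a rho of 0.486 (exact permutation p 0.356, adjusted p 0.711), and r was 0.266 without the 2 farthest.

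ENSOARG00020022055 and ENSOARG00020025202 gave the highest positive value, an r of 0.605 in active rams (exact permutation p 0.189, adjusted p 0.756). Their rho was 0.657 (exact permutation p 0.175, adjusted p 0.7). Without the 2 farthest libraries r was 0.977. The 4 left, of animals 2, 4, 5 and 6, held only 1, 1, 4 and 4 counts of ENSOARG00020025202, near the lower limit of detection. In inactive rams the pair had an r of -0.114 (exact permutation p 0.725, adjusted p 0.87) with a rho of -0.143 (exact permutation p 0.803, adjusted p 0.876). The rams at the top differed by gene: animals 9 and 10 for ENSOARG00020006027, 11 and 12 for ENSOARG00020022055, 10 and 7 for ENSOARG00020016201, and 12 and 9 for ENSOARG00020025202. Without the hypothalamus library of animal 4 the 6 correlations in active rams kept their signs, from -0.986 to 0.536.

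**Figure D4:**
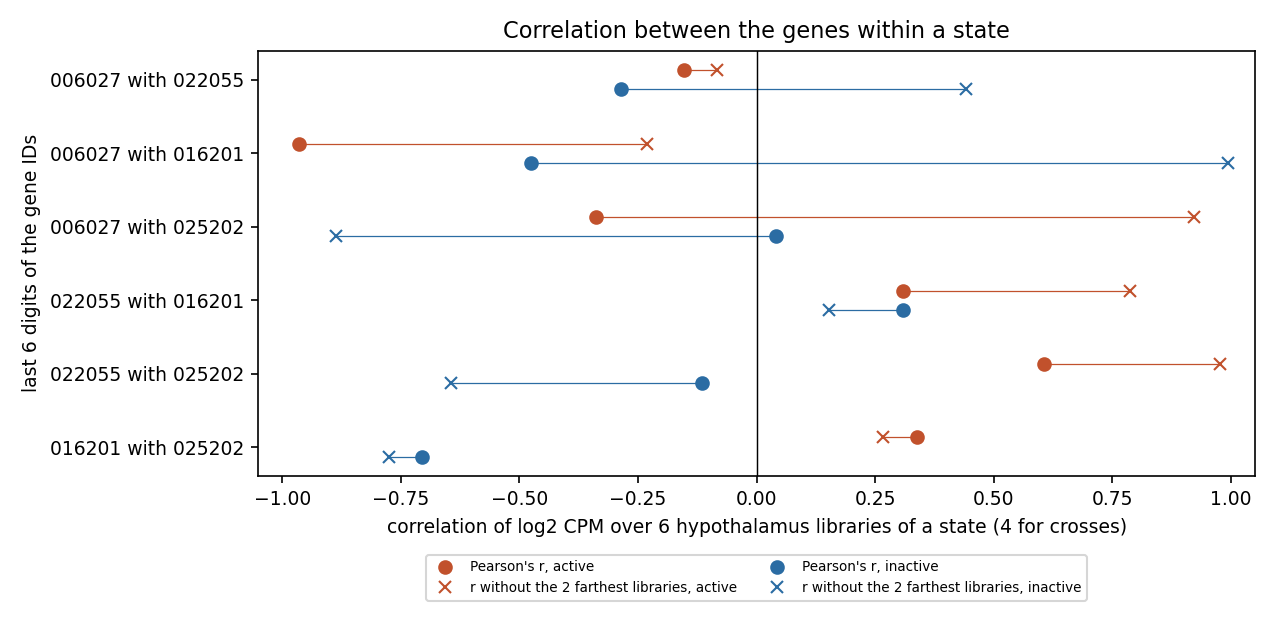
Pearson's r of hypothalamic log2 CPM for each pair of genes within a state (circles, 6 libraries) and without the 2 libraries farthest from the median of the first gene (crosses, 4 libraries). Circles spread from -0.964 to 0.605, and several crosses lie on the other side of 0.

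Depth and the level of the hypothalamus gene set moved with some of these levels. In the hypothalamus, ENSOARG00020006027 had an r with log2 depth of 0.704 in active and 0.695 in inactive rams, and ENSOARG00020016201 one of -0.758 and -0.0101 (6 libraries each). In the pineal gland the r of ENSOARG00020006027 with depth was -0.817 and -0.428, and that of ENSOARG00020016201 was -0.34 and 0.758. Hypothalamus libraries held 19251952 to 39051923 counts in active and 19769684 to 44283825 in inactive rams. With the log2 level of the hypothalamus gene set, ENSOARG00020025202 had an r of 0.617 in active and -0.715 in inactive rams, and ENSOARG00020016201 one of -0.302 and 0.416. These values are descriptions, and the part of depth or tissue content in the results was not tested.

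No correlation of a gene's levels between tissues of the same rams passed the test within a state. Over 4 genes, 3 pairs of tissues and 2 states, 14 of 24 correlations were positive, r ran from -0.627 to 0.761, and adjusted p from two-sided exact permutation tests ran from 0.833 to 0.94. The highest was that of ENSOARG00020006027 between pars tuberalis and pineal gland in inactive rams, with an r of 0.761 (exact permutation p 0.0625), a rho of 0.943 (exact permutation p 0.0167, adjusted p 0.4) and an r of 0.773 without the 2 farthest rams. For hypothalamus and pineal gland the same gene had an r of 0.429 in active and 0.226 in inactive rams (exact permutation p 0.338 and 0.685), with a rho of 0.886 and -0.0857 (exact permutation p 0.0333 and 0.919). ENSOARG00020016201 had an r of 0.734 between those tissues in inactive rams (exact permutation p 0.163, rho 0.0286), which was -0.885 without animal 9 and -0.542 without the 2 farthest rams, so its sign rested on that animal.

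The closest correlates of each gene were sought among the 14617 other genes that averaged at least 1 CPM in the hypothalamus, by the smaller of the 2 Pearson's r within active and within inactive rams. Being the best of 14617 over 6 libraries per state, these values carry no test. Single-state r reached 0.986 or more for each of the 4 genes in both states, so the requirement of both states is what narrows the list.

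Few genes followed any of the 4 in both states. An r of at least 0.8 in active and in inactive rams was found for 4 genes with ENSOARG00020006027, 6 with ENSOARG00020022055, 2 with ENSOARG00020016201 and 5 with ENSOARG00020025202. The same count had a median of 120 over all genes averaging at least 1 CPM in the hypothalamus, which were not matched to the 4 in level. The 4 lists had no gene in common, pair by pair. In a single state the counts were larger, from 161 to 1131 in active and from 102 to 915 in inactive rams. The medians beside them were 911 and 1098.5 over all genes averaging at least 1 CPM. An r of -0.8 or lower in both states was found for 3, 5, 2 and 3 genes in the same order, beside a median of 76. The positive lists were thus little longer than the negative ones, and neither was tested.

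For ENSOARG00020006027 the closest genes were ENSOARG00020025715, with an r of 0.925 in active and 0.936 in inactive rams, and ENSOARG00020004724, with 0.967 and 0.850. ENSOARG00020025715 averaged 15.6 ± 2.59 CPM in active and 15.9 ± 2.30 in inactive hypothalamus (SD, n = 6 each), so it varied with ENSOARG00020006027 within each state while its 2 means lay within 1 SD of each other. Unlike ENSOARG00020006027, it averaged more in the pars tuberalis, at 29.5 ± 4.84 and 27.4 ± 6.12 CPM, than in the hypothalamus. The most opposite gene was ENSOARG00020011766, at -0.883 and -0.878. In active rams these r include animal 6, whose 9.21 CPM of ENSOARG00020006027 lay far below the 22.4 to 27.9 CPM of the others. How far the active r rested on that library was not tested.

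For ENSOARG00020022055 the closest were ENSOARG00020020452 (r 0.891 and 0.944 in active and inactive rams) and ENSOARG00020011754 (0.880 and 0.913), and the most opposite was ENSOARG00020012331 (-0.925 and -0.861). ENSOARG00020020452 averaged 43.4 ± 10.0 and 46.8 ± 7.36 CPM in the hypothalamus and less than 5 CPM in the pars tuberalis, at 4.56 ± 1.69 and 4.73 ± 1.37 (SD, n = 6 each). It too had a higher level in the hypothalamus than in the other tissues. ENSOARG00020011754 had the other order, at 32.0 and 31.7 CPM in active and inactive hypothalamus. Its means were 50.4 and 49.2 CPM in the pars tuberalis, and 66.1 and 66.0 CPM in the pineal gland.

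For ENSOARG00020016201 the closest were ENSOARG00020004181 (0.870 and 0.884) and ENSOARG00020002348 (0.887 and 0.851), and the most opposite was ENSOARG00020013225 (-0.832 and -0.890). Animal 6, at 1.77 CPM of ENSOARG00020016201, lay apart from the other active rams at 0.480 to 0.714 CPM. Its part in the active r was not tested. ENSOARG00020002348 averaged 173 ± 83.0 CPM in active and 197 ± 53.8 in inactive hypothalamus (SD, n = 6 each). Its means were 26.0 ± 31.7 and 16.8 ± 4.74 in the pars tuberalis, and 18.1 ± 3.83 and 22.8 ± 5.96 in the pineal gland. The order of hypothalamus and pars tuberalis was thus opposite to that of ENSOARG00020016201. For ENSOARG00020025202 the closest were ENSOARG00020024249 (0.909 and 0.888) and ENSOARG00020012557 (0.909 and 0.839), and the most opposite was ENSOARG00020017874 (-0.919 and -0.989). In active rams 1 to 6 these r rested on 32, 1, 1, 1, 4 and 4 counts of ENSOARG00020025202, mostly near the lower limit of detection.

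The other tissues had no part in choosing these correlates. None of the 17 genes on the 4 lists had an r of 0.8 or more in both states of the pars tuberalis, nor in both states of the pineal gland. For the 5 genes on the list of ENSOARG00020025202 this says little. That gene had 15 counts in all pars tuberalis and 19 in all pineal libraries, too few for a reliable r. Of all 14617 genes, the share that reached it with each of the 4 genes was 0.00684% to 0.103% in the pars tuberalis and 0.0479% to 0.294% in the pineal gland, so 0 of 17 is near the background. For the 8 closest genes named, r with their partner ran from -0.660 to 0.737 over pars tuberalis and from -0.537 to 0.613 over pineal groups. ENSOARG00020011754 and ENSOARG00020004181 had an r above 0 in all 4 of these groups. For ENSOARG00020011754 it was 0.283 and 0.214 in the pars tuberalis and 0.593 and 0.613 in the pineal gland, and for ENSOARG00020004181 it was 0.384 or less.

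**Figure D5:**
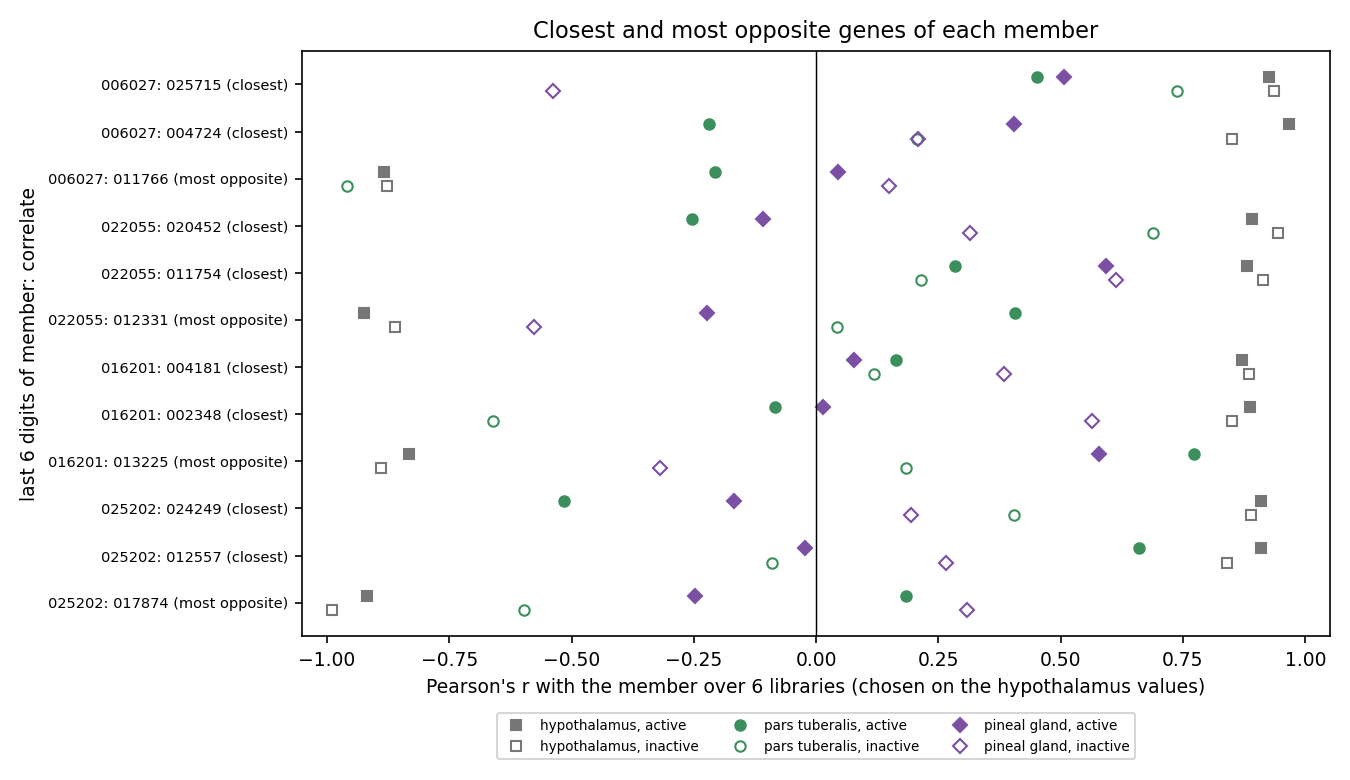
Pearson's r of each gene with its 2 closest and its most opposite gene, over the 6 libraries of each tissue and state (filled for active, open for inactive). Grey squares, the hypothalamus values used for the choice, lie at 0.839 or more in size for the closest genes, and the values of the other tissues spread on both sides of 0.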

How the data were processed

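The authors deposited raw counts per Ensembl gene, not normalised, from stranded messenger RNA libraries of 36 samples per the labels' protocols. FastQC, STAR 2.7.8a, HTSeq and edgeR are named, without roles, per the submitters' processing notes. The sources used here do not give build, annotation, strand setting or use of molecular identifiers, so near-identical or overlapping genes are uncertain and copies of 1 molecule may be counted. Totals per library ran from 19251952 to 72951491 counts. No library was counted as a copy of another: over 90 pairs within groups, chi-square over its degrees of freedom was 35.7 or more.

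Analysis used edgeR 4.0.16 under R 4.3.3. Genes were filtered (filterByExpr, minimum count 10, leaving 16773), counts scaled by TMM and fitted by robust quasi-likelihood with 1 mean per group over 36 libraries, with Benjamini-Hochberg adjustment and a threshold of 0.05. SE is the log2 difference over the square root of F, from a spread of each gene shared by all tissues. Correlations used log2 CPM with a prior count of 2. Tissue sets held genes with a median of 20 CPM and 50 times both other tissues. Alternatives were DESeq2 1.42.0, RLE scaling, no filter, single-tissue fits, an animal block and leaving out animals or libraries. Scripts were tested on simulated data.

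The animal number in the labels pairs the 3 tissues of a ram. Same-animal deviations from group means had a median correlation of 0.041 (hypothalamus and pars tuberalis), 0.15 (hypothalamus and pineal gland) and 0.2 (pars tuberalis and pineal gland). Genes and lists were chosen with earlier results of these data known. Named correlates are the 2 genes with the highest smaller r of both states and the 1 with the lowest larger r. Lists of gene symbols for hypothalamic pathways and cell types were not used, since no ID had a name.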

Additional observations from a re-analysis of the deposited data

Results flagged for a closer look

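Of 24 groups of 6 libraries (4 genes, 3 tissues, 2 states), 4 held a library far from the others, where chance flags about 1 in 20 groups of normally distributed values, a shape not tested for these levels. All 4 were groups of active rams. ENSOARG00020006027 stood at 9.21 CPM in the hypothalamus of active animal 6, below the next lowest active ram at 22.4 CPM. ENSOARG00020016201 stood at 1.77 CPM in the same library, above the next at 0.714 CPM. ENSOARG00020025202 stood at 1.03 CPM in the hypothalamus of active animal 1, above the next at 0.236 CPM. In the pineal gland of active animal 6 it stood at 0.0979 CPM (4 counts), where the next active ram had 0.0283 CPM.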

How the results depend on the processing

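Over RLE scaling, no filter, DESeq2, the animal block, leaving out each animal and leaving out the hypothalamus library of animal 4, the tissue comparisons of the 4 genes kept their side of the threshold. None of the 4 was called by state in pars tuberalis or pineal gland with RLE scaling, no filter, single-tissue fits, DESeq2 or leaving out each animal, nor in the pineal gland without the pineal library of animal 10. The single-tissue fits held no value for ENSOARG00020025202 in those tissues, where it failed the filter. With the animal as a replicate block the log2 differences of pars tuberalis minus hypothalamus were -1.84, -1.72, 4.39 and -4.49 in the order ENSOARG00020006027, ENSOARG00020022055, ENSOARG00020016201, ENSOARG00020025202, and the block changed no call. Leaving out each animal, pineal gland minus pars tuberalis for ENSOARG00020025202 ran from -0.36 to 0.418 and changed sign without animal 1, 6, 10 or 12 (-0.0497, -0.36, -0.292 and -0.0188). Genes called by state in the hypothalamus numbered 16, but 0 in the hypothalamus libraries alone, 0 without the hypothalamus library of animal 4, 140 by DESeq2 and 0 to 54 without 1 animal (0 without animal 4, 10 or 11). In the pars tuberalis they numbered 0, 1 by DESeq2 and 0 to 1 without 1 animal (1 without animal 6), and in the pineal gland 0, and 20 by DESeq2. The cause of these moves was not tested.

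Between genes in the hypothalamus, Spearman's rho had the other sign than r for ENSOARG00020006027 with ENSOARG00020016201 (0.143) and with ENSOARG00020025202 (-0.143) in inactive rams. Without the 2 farthest libraries, which leaves 4, the sign changed for ENSOARG00020006027 with ENSOARG00020025202 in active (0.923) and inactive rams (-0.886), and in inactive rams with ENSOARG00020022055 (0.442) and ENSOARG00020016201 (0.994). The value of 0.923 rested on libraries with 1 to 4 counts of ENSOARG00020025202. Between tissues, rho had the other sign for ENSOARG00020016201 in hypothalamus and pineal gland of active rams (-0.0857), ENSOARG00020006027 in the same tissues of inactive rams (-0.0857) and ENSOARG00020025202 in hypothalamus and pars tuberalis of inactive rams (-0.116). Without the 2 farthest rams, correlations between tissues changed sign in these cases. In active rams they were 0.151, -0.221 and -0.547 for ENSOARG00020022055 (hypothalamus with pars tuberalis, hypothalamus with pineal gland, pars tuberalis with pineal gland), -0.999 for ENSOARG00020016201 (hypothalamus with pineal gland), and 0.75 and -0.313 for ENSOARG00020025202 (hypothalamus with pars tuberalis and with pineal gland). In inactive rams they were -0.896 and -0.881 for ENSOARG00020006027 and 0.83 and -0.542 for ENSOARG00020016201 (hypothalamus with pars tuberalis and with pineal gland), -0.142, -0.109 and -0.451 for ENSOARG00020022055 in the order above, and -0.619 for ENSOARG00020025202 (hypothalamus with pineal gland). No correlation passed the test with Spearman's rho, RLE scaling or a prior count of 0.5, and none was tested where libraries were left out. Chosen after seeing the data, leaving out animal 9 gave -0.885 for ENSOARG00020016201 between hypothalamus and pineal gland in inactive rams. Depth limits ENSOARG00020025202 most, with 15 and 19 counts in all pars tuberalis and pineal libraries.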
